A study of Mus musculus with 8 samples.

Results

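Fto (ENSMUSG00000055932) and Alkbh5 (ENSMUSG00000042650) encode the RNA demethylases that take the mark N6-methyladenosine (m6A), a methyl group, off adenosines of messenger RNA. They are 2 of the 53465 genes in the count table. Fto was found by its symbol in the peak lists and Alkbh5, which has no peak and so no symbol there, by its Ensembl identifier. The series compared C57BL/6 wild-type mice (WT) with mice of genotype Alkbh5-/- (KO), all 12 weeks old, whose testes gave the spermatogenic cell fractions labelled PA and RO; the series title names pachytene spermatocytes and round spermatids. Each genotype and fraction has 1 input library, the unselected RNA, and 1 library immunoprecipitated with an antibody against m6A (MeRIP-seq), so each of the 8 groups is 1 sample. Gene counts cover the 4 input libraries, and a peak list belongs to each of the 4 immunoprecipitated ones. The deleted part of Alkbh5, the number of mice in a sample and the purification of the fractions are not given in the sources used here. Because each group is a single library, no test was made and the values describe these libraries only.

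The m6A mark is placed by a complex built around Mettl3 and Mettl14, read by proteins with a YTH domain, and removed by iron-dependent dioxygenases of the AlkB family. Alkbh5 acts on m6A in nuclear RNA and is known for its high level in testis, where its loss impairs sperm production in mice. Fto was named for its deletion in the fused toes mutant, is linked to body weight in people, and removes m6A and the related cap-adjacent mark m6Am.

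The RefSeq gene table of GRCm38.p6, the assembly behind mm10, which the submitters' processing notes name, places both genes. Fto spans chr8:91313367-91668433 on the + strand (355 kb), with the long noncoding gene 4831440D22Rik inside it on the other strand. Alkbh5 spans chr11:60537683-60558512 on the + strand (20.8 kb), and no other gene of the table overlaps it. Rpgrip1l, which encodes a protein of the ciliary transition zone, lies next to Fto on the opposite strand, and the spans of these genes are 75 bp apart. The stretch between them is shown because the counts of both genes, which point away from it, are compared further on. It is chr8:91313292-91313366 on the + strand, from the RefSeq promoter table, with CpG dinucleotides in capitals.
Rpgrip1l to Fto: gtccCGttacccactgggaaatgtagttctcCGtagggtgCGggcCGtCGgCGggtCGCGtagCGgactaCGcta

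This stretch holds 10 CpG dinucleotides and is 64.0% G and C. The promoter window of Fto in the RefSeq table, 300 bases long, holds 23 CpG, more than 78.5% of the 32851 windows of that length, and that of Rpgrip1l holds 22. The window of Alkbh5 holds 18, more than 70.3% of the windows. All 3 are thus rich in CpG beside a median window, which holds 7. The windows of Fto (chr8:91313275-91313574) and Rpgrip1l (chr8:91313173-91313472) overlap, so their CpG counts are not separate.

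Total counts per input library lay between 9921365 and 13147239. Marker genes of the cell types could be used only where the peak lists give a symbol, and levels are in CPM, counts brought to one library size with TMM factors. Round spermatid markers (5 of 10: Acrv1, Tnp2, Prm2, Odf1 and Akap4) summed to 202 CPM with WT and 502 with KO in PA, and to 390 with WT and 933 with KO in RO. Their sum was higher in RO than in PA in each genotype, and higher with KO in each fraction. Acrv1 alone was lower with KO, at 54.7 CPM with WT and 51.3 with KO in PA, and 136 and 77.6 in RO. Pachytene markers (4 of 11: Sycp1, Sycp2, Syce1 and Mlh3) summed to 2397 and 1306 CPM in PA and to 2075 and 1529 in RO, WT first. With KO their sum was higher in RO than in PA, against the fraction labels, although Mlh3 was lower there (84.6 CPM in PA, 58.2 in RO). Markers of Sertoli cells (4 of 7; 172 to 318 CPM), Leydig cells (2 of 5; 16.7 to 136), spermatogonia (3 of 6; 23.5 to 60.4), peritubular muscle (1 of 2; 143 to 285) and endothelium (2 of 2; 31.1 to 78.1) were present in each library. No marker with a symbol was at 0 anywhere, but markers without a peak in any list could not enter. The spermatogonia marker Gfra1 had 2 counts in WT RO and 67 in KO RO.

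Alkbh5 was nearly absent from both KO libraries. In PA it had 360 counts with WT and 1 with KO, and in RO 378 with WT and 0 with KO. The WT levels were 30.7 CPM in PA (exact Poisson 95% interval 27.6 to 34.0) and 32.8 CPM in RO (29.6 to 36.3), and the single KO count in PA was 0.0924 CPM (0.00234 to 0.515). Both libraries labelled KO thus lay far below both labelled WT, with no overlap of the intervals.

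At the WT level a KO library of the same depth would have held 332 counts in PA and 360 in RO. The KO level in PA was 0.301% of the WT level, with an exact binomial 95% interval of 0.00761% to 1.69%. In RO it had 0 counts, and a floor of 3 counts in that library is 120-fold below the WT level, or 0.834% of it. The upper end of the exact 95% interval for 0 counts is 1.03%, or 97.0-fold lower. Reads over the counted part of the gene were therefore limited to about these shares in the libraries labelled KO. Intervals and floors cover counting error only.

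How far this pattern stands apart was described over all genes. Of 10425 genes with at least 100 counts in both WT libraries, 1 had 3 counts or fewer in both KO libraries, and it was Alkbh5. This depends on the limit of 100 counts. Short of it, 2610507I01Rik had 131 counts in WT PA, 64 in WT RO and 0 in both KO libraries. The mirror pattern, high with KO and at 3 counts or fewer with WT, was found for 2 of 10694 genes. Alkbh5 also had the lowest log2 genotype ratio (KO over WT, with a prior count of 2) in each fraction among the 13677 genes that reached 10 CPM somewhere. Its values were -6.84 in PA and -7.54 in RO, and the next lowest were -6.80 and -5.97. Both the values and the place in PA depend on the prior: with a prior of 0.5 Alkbh5 had -7.81 in PA, with 4 genes lower (1700061E17Rik at -8.80 the lowest), and -9.53 in RO, with 0 genes lower. It is among the genes at least 2-fold lower with KO, which made up 19.9% of the genes kept (at least 1 CPM in one of the libraries compared) in PA and 19.0% in RO.

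The counts thus match the genotype labels of the 4 input libraries. They do not check the fraction labels, since the level of Alkbh5 with WT was nearly the same in both fractions. The stage ratio (RO over PA) with WT was 1.07 (0.924 to 1.24), an interval that includes 1, and its log2 value of 0.10 was small beside a robust SD of 0.70 (the scaled median absolute deviation) among 5551 genes of like summed count. No stage ratio was formed with KO, at 1 and 0 counts. The counts also do not reach the immunoprecipitated libraries, whose counts were not analysed here and whose lists hold no Alkbh5 peak.

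**Figure D1:**
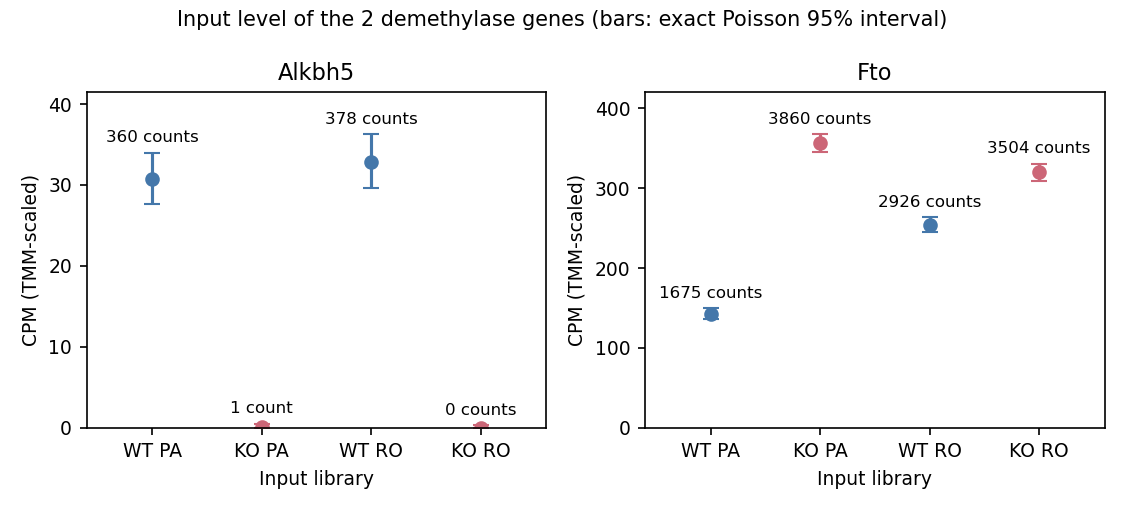
Scaled input level (CPM, vertical axis from 0) of Alkbh5 and Fto in the 4 input libraries, with raw counts printed above each point and bars for the exact Poisson 95% interval. Alkbh5 is near 0 in both KO libraries, and Fto is lowest in WT PA (143 CPM) and highest in KO PA (357 CPM).

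Fto, the other demethylase, was higher with KO than with WT in both fractions, by the larger factor in PA. In PA it had 1675 counts with WT and 3860 with KO, and in RO 2926 with WT and 3504 with KO. The scaled levels were 143 CPM (136 to 150) and 357 CPM (346 to 368) in PA, and 254 CPM (245 to 264) and 320 CPM (309 to 331) in RO, WT first. Both KO libraries lay above both WT libraries, and WT PA stood lowest. Ranked by count within a library, Fto was gene 1502 there, 696 in WT RO, 358 in KO RO and 280 in KO PA.

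In PA the genotype ratio of Fto was 2.5 (exact binomial 95% interval 2.36 to 2.65), a log2 ratio of 1.32. Fto passed 2-fold there, as did 23.8% of the genes kept in that direction. Many of those genes have few reads, so Fto was also placed among genes of like depth. These were the 1471 genes whose summed PA count lay between 0.5 and 2 times the 5535 counts of Fto. With KO 17 of them (1.16%) were at least 2-fold higher and 203 (13.8%) at least 2-fold lower. The ratio of Fto was reached by 7 (0.476%), Fto included. The median log2 ratio of the 1471 genes was -0.27 and their robust SD, which holds real differences too, was 0.61.

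In RO the genotype ratio was 1.26 (1.20 to 1.32), a log2 ratio of 0.33. That is beyond counting error and short of 2-fold, which 23.0% of genes passed upwards in RO. Of 1206 genes of like summed count, 24 (1.99%) were at least 2-fold higher with KO and 151 (12.5%) at least 2-fold lower. A ratio as high as that of Fto was found for 158 (13.1%). The robust SD of the 1206 genes was 0.55 around a median of -0.25. The RO value of Fto thus lay 0.58 above the median of genes of like depth, close to 1 robust SD.

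Between the fractions Fto went opposite ways in the 2 genotypes. With WT it was 1.78-fold higher in RO than in PA (1.68 to 1.89), a log2 ratio of 0.83, and 138 of 1923 genes of like depth (7.18%) were as high. With KO the stage ratio was 0.897 (0.856 to 0.939), a log2 ratio of -0.16, smaller in size than the robust SD of 0.26 among 863 genes of like depth. Neither passed 2-fold, which 40.2% of genes did with WT and 32.7% with KO in either direction. Among genes of like depth such changes were rarer. With WT 3.59% of them were at least 2-fold higher in RO and 2.13% lower, and with KO 0.232% and 0.116%. The WT PA library enters both the genotype ratio in PA and the stage ratio with WT, so those are not separate measurements.

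From lowest to highest the Fto levels ran WT PA, WT RO, KO RO and KO PA, and each step lay outside its counting interval. Without centring on genes of like depth, the 2 upper steps were smaller than the robust SD of such genes. From WT RO to KO RO the log2 ratio was 0.33, against a robust SD of 0.55. Between the KO libraries it was -0.16 (RO over PA), against 0.26. The summed round spermatid markers were lowest in WT PA too, and were 2.49 times as high with KO as with WT in PA and 2.39 times in RO, with 4 of 5 markers higher each time. Spermatogonia markers were 1.98 times as high with KO in PA and 1.81 times in RO, with 3 of 3 higher each time, and endothelial markers 1.11 and 2.51 times, with 2 of 2 higher. Sertoli markers stood at 1.33 and 1.15 times the WT sum, with 2 of 4 higher in PA and 3 of 4 in RO. The muscle marker Myh11 stood at 0.954 and 1.58 times. Summed pachytene markers were lower with KO, at 0.545 of the WT sum in PA and 0.737 in RO. Of these 4 markers, 0 were higher with KO in PA and 1 in RO (Sycp1, 364 CPM with WT and 434 with KO). Sycp2 held most of the sum, 1777 of 2397 CPM in WT PA. Leydig markers were lower with KO too, at 0.294 and 0.402 of the WT sum. Csf1r, the 1 of 3 macrophage markers with a symbol, was at 2.13 CPM with WT and 12.3 with KO in PA, and at 6.86 and 21.5 in RO. The part of these cell types in the Fto ratios was not tested. In bulk libraries fewer cells of a type and less RNA per cell cannot be told apart.

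**Figure D2:**
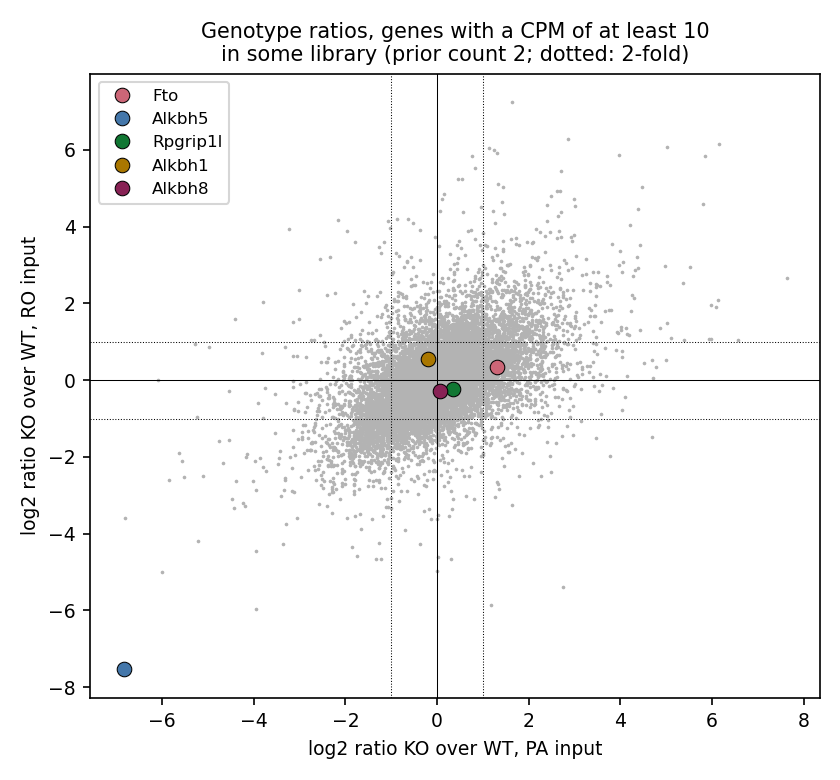
Log2 genotype ratio (KO over WT) in the PA input libraries (horizontal axis) and in the RO input libraries (vertical axis), 1 grey point for each of 13677 genes that reached 10 CPM somewhere, with dotted lines at 2-fold. Alkbh5 is the lowest point on both axes (-6.84 and -7.54, prior count of 2), and Fto lies right of the 2-fold line in PA and inside it in RO (1.32 and 0.33).

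Rpgrip1l, across the 75 bp printed above, did not share the genotype ratios of Fto. In PA it had 3865 counts with WT and 4529 with KO, and in RO 6741 with WT and 5440 with KO. Its genotype ratio of 1.27 in PA (1.22 to 1.33) was above 1, and that of 0.848 in RO (0.818 to 0.879) was below 1 in the fraction where that of Fto was 1.26. On the log2 scale that RO ratio was -0.24, but only -0.06 with scaling by total counts, where Fto had 0.51. The stage ratio with WT was the same for both genes, 0.83 on the log2 scale, and with KO it was 0.25 for Rpgrip1l and -0.16 for Fto. Whether the counting used strand is not given in the sources used here, so reads of Fto and of 4831440D22Rik inside it cannot be told apart.

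The further neighbours of Fto with a symbol and a count varied in both directions. Before it lie Rbl2, a retinoblastoma family repressor (log2 genotype ratio 0.13 in PA, 0.25 in RO), and Chd9, a chromatin remodeller (-1.19 and -0.06, or -0.90 and 0.12 with scaling by total counts). After it lie Gm36380 (-1.50 and -2.76), the homeobox gene Irx5 (1.79 and 1.11, from 32 to 119 counts) and Gm30132 (0.27 and -0.61).

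For Alkbh5 the nearest such neighbours were Llgl1, a cell polarity gene 141 kb after it (0.75 and -0.25), and Rai1, a transcriptional regulator 338 kb before it (0.14 in both fractions). Flii, an actin-remodelling protein gene, had 0.37 and 0.13, Rasd1 -0.75 and -0.19, and 4930412M03Rik 0.79 and -0.74. Mief2, which encodes a mitochondrial fission factor 170 kb after Alkbh5, was lower with KO in both fractions. It had 135 counts with WT and 17 with KO in PA, and 34 and 9 in RO, so the genotype ratios were 0.137 (0.0773 to 0.227) and 0.278 (0.117 to 0.592). None of these neighbours was at 3 counts or fewer in a KO library, where Alkbh5 had 1 and 0. Genes without a peak in any list could not enter as neighbours, so silent genes nearby would have been missed.

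The peak lists give 1 m6A peak in Fto in each of the 4 lists, all in coding sequence and at one place. The fold, p-value and false discovery rate of a peak are the authors' own and are read within a list only. The authors' deposited table of WT PA peaks has it at chr8:91409256-91409675, 420 bp long, with a fold of 19.4. The authors' deposited table of KO PA peaks has it at chr8:91409256-91441676 in 2 blocks of 586 and 14 bp, with a fold of 12.5. The first blocks of the 4 peaks began within 90 bp of each other and ended within 166 bp. The authors' deposited table of WT RO peaks has it at chr8:91409226-91409765, 540 bp long, with a fold of 17. The authors' deposited table of KO RO peaks has it at chr8:91409316-91409795, 480 bp long, with a fold of 9.3.

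The stretch present in all 4 peaks, chr8:91409316-91409675, was 360 bp long and began 95.9 kb into the gene. In PA it made up 85.7% of the WT peak and 60.0% of the KO peak, and in RO 66.7% of the WT peak and 75.0% of the KO peak. Pairwise, the shared length lay between 360 bp (WT PA with KO RO) and 510 bp (KO PA with WT RO). The second block of the KO PA peak began 128 kb into the gene, so that this peak is split over a gap in the genome, and the other peaks end before the end of its first block.

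**Figure D3:**
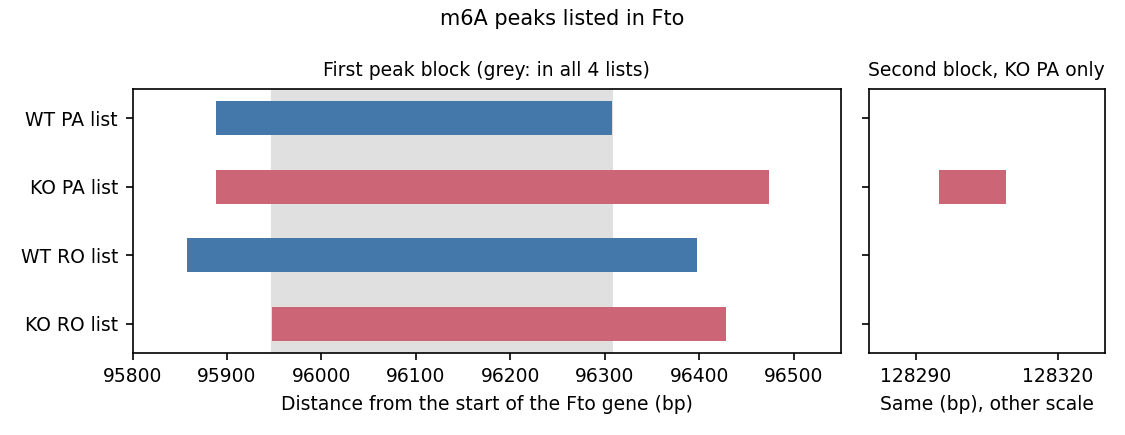
Blocks of the Fto peak in each list, by distance in bp from the start of the Fto gene span; the grey band marks the 360 bp present in all 4 lists. The right panel, on another scale, shows the second block of 14 bp that only the KO PA peak has.

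Within its list the Fto peak was near the middle in fold and longer than most peaks. The share of peaks with a higher fold was 31.3% (WT) and 51.4% (KO) in the PA lists, and 46.1% (WT) and 62.0% (KO) in the RO lists. A lower p-value was given to 30.0%, 10.8%, 9.01% and 14.5% of the peaks of these lists, taken in that order, and 15.2%, 9.75%, 7.53% and 12.9% were longer. The log10 p-value of the Fto peak in the authors' deposited table was -23.2 with WT and -57.3 with KO in PA, and -85.3 with WT and -67.6 with KO in RO. The weakest was that of WT PA, which had the lowest Fto input count (1675). The strongest was that of WT RO (2926 counts) and not that of KO PA, which had the highest count (3860). A link of the p-value with input depth was not tested.

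A peak was common in genes of this depth. Of genes with 0.5 to 2 times the Fto count in the matching input library, 47.0% had one with WT and 72.8% with KO in PA, as did 59.1% with WT and 64.0% with KO in RO. Of 8733 genes with a peak in any list, 3007 had one in all 4, and 831 had exactly 1 in each as Fto did. In 725 of those 831 genes (87.2%), Fto among them, the 4 peaks shared a stretch, and in 315 (37.9%) all were in coding sequence.

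Alkbh5 had no peak in any list. In the KO input libraries its transcript was at or near 0. With WT, 30.4% of genes of like count had a peak in PA and 37.6% in RO, so most genes at this depth had none listed. The lack of a listed peak does not show that the transcript lacks the mark.

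**Figure D4:**
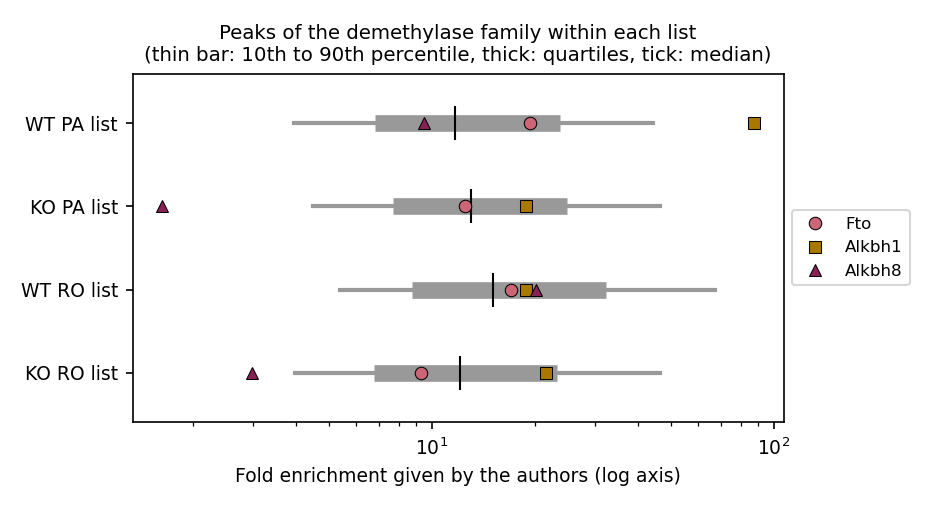
Fold enrichment given by the authors (log axis) of the peaks in Fto, Alkbh1 and Alkbh8, each against the distribution of all peaks of its own list (quartiles as thick bars). Fto lies within the quartiles in the 4 lists, and Alkbh8 lies below the thin bar in KO PA (1.63) and KO RO (2.99).

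The other AlkB family genes with a symbol, 4 of 9 members being named in all, were Alkbh1, which acts on nucleic acids including transfer RNA, and Alkbh8, which modifies the wobble base of transfer RNA. Alkbh1 had 662 counts with WT and 531 with KO in PA, and 449 and 620 in RO. Its log2 genotype ratio was -0.20 in PA, which turned to 0.09 with scaling by total counts, and 0.54 in RO. Alkbh8 had 776 and 753 counts in PA and 688 and 536 in RO, with log2 ratios of 0.07 and -0.29. Neither passed 2-fold, which Fto did in PA and Alkbh5 in both fractions. The median over the 4 genes was -0.06 in PA and 0.02 in RO, beside 0.04 in both fractions over all genes.

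Like Fto, Alkbh1 had 1 coding peak at one place in each list, within chr12:87428857-87429125 on the - strand. In the authors' deposited tables its fold was 87.5 for WT PA, where 2.84% of peaks had a higher one, 18.8 for both KO PA and WT RO, and 21.6 for KO RO. Alkbh8 had a coding peak at chr9:3385109-3385348 in WT PA and KO RO and a shorter one there in KO PA. In WT RO its only listed peak was in the 3′ untranslated region, at chr9:3386066-3386246.

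Among the enzymes that place the mark, 7 writer genes could be named. The list holds 11 names, but some of these are other names of Virma. Mettl3 and Mettl14 were not analysed here. In PA 1 writer gene was at least 2-fold higher with KO and none 2-fold lower, against 23.8% and 19.9% of all genes kept. That gene was Cbll1, a subunit with an E3 ligase fold (337 counts with WT, 646 with KO). In RO 3 writer genes were 2-fold higher and none 2-fold lower, against 23.0% and 19.0%. They were Zc3h13, which holds the complex in the nucleus (3111 and 7526 counts), Wtap, its targeting subunit (140 and 334), and Mettl16, a separate methyltransferase (253 and 494). In PA, Wtap had a log2 ratio of 0.85 and Zc3h13 of 0.82, both past 2-fold with scaling by total counts (1.14 and 1.11).

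The scaffold Virma had log2 genotype ratios of -0.53 in PA and 0.34 in RO, and the RNA-binding subunits Rbm15 and Rbm15b lay between -0.68 and 0.15; with scaling by total counts Rbm15 turned from -0.03 to 0.25 in PA and from -0.05 to 0.13 in RO. The writer median was 0.23 in PA and 0.34 in RO. Of the proteins that read the mark, 7 of 13 could be named; none passed 2-fold in PA, and Fmr1, a translational repressor, did so upwards in RO (675 counts with WT, 1520 with KO). The YTH domain readers Ythdf1, Ythdf2, Ythdf3 and Ythdc1 had log2 ratios of 0.71, 0.73, 0.11 and 0.44 in PA and of 0.14, 0.30, -0.17 and 0.27 in RO. With scaling by total counts Ythdf2 passed 2-fold in PA (1.02), Ythdf1 stood at 1.0 there, and Ythdf3 turned to 0.01 in RO. Prrc2a, with -0.80 and -0.93, had the lowest ratio of the named readers. The reader median was 0.44 in PA and 0.14 in RO. With 7 genes a list these counts are a description, and nothing particular to the lists is read from them. Scaling by total counts moved the median of all genes from 0.04 to 0.35 in PA and from 0.04 to 0.22 in RO, and the share of higher genes among those past 2-fold in PA from 54.6% to 67.8%.

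**Figure D5:**
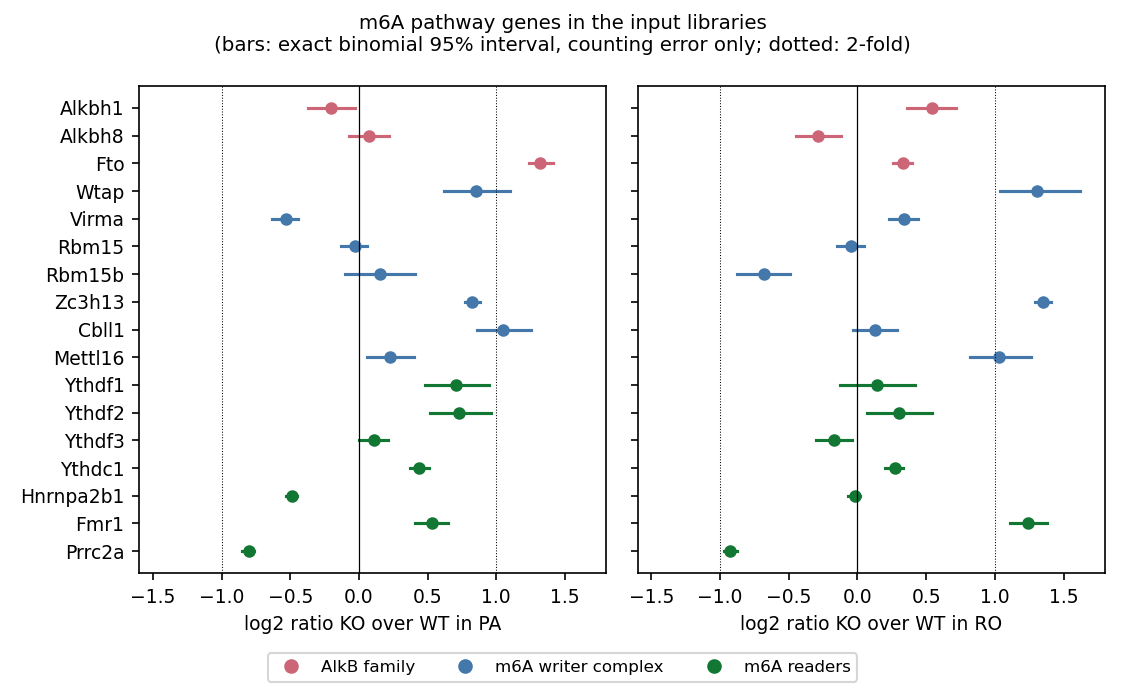
Log2 genotype ratio (KO over WT, horizontal axes) in PA and RO for the named genes of the AlkB family without Alkbh5, the writer complex and the readers, with exact binomial 95% intervals for counting error and dotted lines at 2-fold. In PA, Fto (1.32) and Cbll1 (1.05) lie past the right dotted line, and in RO Zc3h13 (1.35), Wtap (1.31), Fmr1 (1.24) and Mettl16 (1.03) do.

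Profiles over the 4 input libraries were compared as log2 CPM centred on the mean of each gene, by Euclidean distance, among 7053 genes with a symbol that reached 10 CPM somewhere. Nearest to Fto was Rps6ka5, a mitogen- and stress-activated kinase gene, at a distance of 0.03, with 564 and 1313 counts in PA and 990 and 1164 in RO. Adam29, Zfp330, Lrriq4 and Lrrc10b followed at 0.11 to 0.12. The nearest to Alkbh5 was 2610507I01Rik at 1.90, with 131 counts in WT PA, 64 in WT RO and 0 in both KO libraries, followed by Gm37819 at 3.02, 1700061E17Rik at 3.31, C920006O11Rik at 3.83 and 4930437M23Rik at 4.39. Of the 7053 genes, 1923 lay within a distance of 1 of Fto and 0 within 1 of Alkbh5. These counts depend on the spread of each profile, so they do not show how common the pattern of Fto is. The log2 CPM ran from 7.16 to 8.48 for Fto and from -2.49 to 5.04 for Alkbh5. Distances of Alkbh5 depend on the prior count through its KO values.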

How the data were processed

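The authors deposited gene counts of the 4 input libraries, whole and not normalized, and 4 peak lists. Per the file headers a peak has exon blocks, a log10 p-value and log10 false discovery rate, a fold enrichment (a ratio of immunoprecipitated over input) and a feature class; the deposited score column holds the p-value itself. The submitters' processing notes name mm10, cutadapt 2.5, HISAT2 2.1.0 and HOMER 4.10.4; the counting tool, peak caller, duplicate handling and use of strand are not given in the sources used here. Peak starts were turned into positions that count from 1. Each list was assigned by its name, which no Alkbh5 value checks.

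Counts were scaled with TMM (edgeR 4.0.16, R 4.3.3; factors 0.892 to 1.09) and turned into log2 CPM, with 2 as the prior count. A gene was kept where either library compared reached 1 CPM, and is past 2-fold at a log2 ratio of 1 or of -1. Ratios use exact binomial and levels exact Poisson 95% intervals (scipy 1.17.1), which are too narrow for differences between samples. A level of 0 was set at 3 counts, per library, for bounds. The scripts were tested on simulated data. Alternatives used total counts, DESeq2 1.42.0 size factors and a prior of 0.5. Named were the members, their peaks, the listed pathway and marker genes, 3 neighbours on each side and the 5 nearest profiles. The members and lists were chosen with earlier results of these data known. A CpG is the letters CG, the same on both strands.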

Additional observations from a re-analysis of the deposited data

Results flagged for a closer look

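The named AlkB, writer and reader genes and the named neighbours of Fto and Alkbh5 were screened, but not the marker genes or the nearest profiles. A gene is listed here because its log2 ratio had opposite signs in the 2 fractions or genotypes, beyond counting error and under every scaling tried. With 1 library per group the difference itself was not tested. For Fto the ratio of RO over PA was 0.83 in WT and -0.16 in KO, a difference of -0.99. For Alkbh1 it was -0.53 and 0.20, a difference of 0.74, for Fmr1 -0.56 and 0.15, a difference of 0.71, and for Zc3h13 -0.26 and 0.26, a difference of 0.52. For Virma the difference was 0.87, from -0.64 in WT and 0.23 in KO, and equally from a genotype ratio (KO over WT) of -0.53 in PA and 0.34 in RO. For Rpgrip1l, the divergent neighbour of Fto, the genotype ratio was 0.35 in PA and -0.24 in RO, a difference of -0.58. Its RO value was near 0 with scaling by total counts, at -0.06. Among the other neighbours, Gm30132 had 0.27 and -0.61, a difference of -0.88, and 4930412M03Rik 0.79 and -0.74, a difference of -1.53. The stage ratio (RO over PA) was -0.88 with WT and 0.24 with KO for Chd9, a difference of 1.13, and 0.69 and -0.31 for Llgl1, a difference of -1.0.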

How the results depend on the processing

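Of 80 alternative values for 25 results, 65 kept within the counting interval or the limit set for them and 15 moved; none changed the side of Alkbh5 or the direction of Fto. With scaling by total counts the log2 ratio of Fto for KO over WT was 1.61 in PA and 0.51 in RO and for RO over PA in WT 0.93. Centred on genes with a like summed count, a setting chosen after seeing the data, the first 2 were 1.59 and 0.58. Total counts also moved the KO over WT median of the AlkB family to 0.22 in PA and 0.20 in RO, of the writer genes to 0.52 in both, and of the reader genes to 0.73 and 0.32. With a CPM of at least 10 fewer genes are kept, and 3315 (PA) and 3094 (RO) passed 2-fold between genotypes in place of 10630 and 10414, and 2593 (WT) and 1353 (KO) between fractions in place of 9650 and 8106. The Fto peaks passed a false discovery rate under 0.05, a fold of at least 5 and a reciprocal overlap of 50% in all 4 lists. For Alkbh5 no ratio of RO over PA in KO was computed, at 1 and 0 counts. Its bound in RO uses no prior; the log2 ratio with a prior moved from -7.54 to -9.53 there with a prior of 0.5, and from -6.84 to -7.81 in PA, where it was then no longer the lowest. No paired analysis was possible because each group is 1 sample and the labels carry no replicate numbers.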

Other observations

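The 2 genes with the mirror pattern of Alkbh5 have no symbol in the lists and were singled out after their values were seen. ENSMUSG00000036109 had 0 counts in both WT libraries, 109 in KO PA and 110 in KO RO. ENSMUSG00000071686 had 1 count in WT PA, 0 in WT RO, 201 in KO PA and 137 in KO RO. Across fractions, 1 of 10415 genes with at least 100 counts in both RO libraries had 3 or fewer in both PA libraries, and 0 of 10329 the reverse.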
